A study of Mus musculus with 7 samples.

Results

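Glucocorticoid signalling was described through 10 genes in mouse prefrontal cortex (PFC), which are the receptors Nr3c1 and Nr3c2 and the targets Fkbp5, Sgk1, Tsc22d3, Zbtb16, Cdkn1a, Plin4, Sult1a1 and Errfi1. They were listed by name, as the 2 corticosteroid receptors and 8 genes known to respond to glucocorticoids, with earlier results of these data known, so the counts of members below are no independent support. All 10 were found among the 55416 genes of the table. They also passed the filter on low counts, which kept 17254 genes. PFC tissue from females was sequenced as 7 RNA-seq libraries, after enrichment for polyadenylated RNA. The question was how neuronal overexpression of PAXIP1-AS1, a human long non-coding RNA, and of its alleles relates to gene expression in the PFC. Ctr (3 libraries) received an adeno-associated virus (AAV) with no insert, Ref (2 libraries) an AAV with the reference C allele of PAXIP1-AS1, and Alt (2 libraries) an AAV with the alternative G allele. All the mice were C57BL/6 females, every construct carried an EGFP reporter, and the transgene was driven by the human synapsin promoter, which is active in neurons, whereas the libraries were made from whole tissue, in which fewer cells of a type and less RNA per cell cannot be told apart. The age of the sequenced mice and whether each library came from 1 animal were not given in the sources used here, so p-values measure only the spread between these libraries.

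Glucocorticoids enter cells and bind the glucocorticoid receptor, encoded by Nr3c1, and with higher affinity the mineralocorticoid receptor, encoded by Nr3c2. The unliganded receptor is held in the cytoplasm by a chaperone complex around HSP90, and once bound by hormone it moves to the nucleus and binds DNA at palindromic response elements. In the brain this pathway carries the response to stress, and glia and vessels as well as neurons respond to it.

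The total count was 16655697 to 20750857 per library. The neuron markers of the labelled tissue were present, with all 8 above 0 in every library and a summed level of 6891 to 8884 CPM (read counts scaled to the size of the library), while 4 striatum markers summed to 34.1 to 66.8 CPM. The Alt libraries stood apart from each other, with a chi-square of their counts, per degree of freedom, of 62.4 against 19.7 to 26.6 between libraries of the same group in Ctr and Ref, and each result on Alt is given with this in view. CPM values were normalized by edgeR's TMM method. Tests are edgeR's quasi-likelihood test, and adjusted p-values are its values after Benjamini-Hochberg adjustment over all genes tested. Where a Ref or Alt library is left out below, a single library stands for its group, and the spread comes from the other groups. No member passed an adjusted p of 0.05 in any comparison, and for Ref versus Ctr the adjusted p was 1.0 for all 10, so the members are described by their values, by the standard error (SE) of the log2 fold change and by how many reached an unadjusted p under 0.05.

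The receptors showed no separation between the groups that exceeded the spread between libraries by this test. Nr3c1 (ENSMUSG00000024431.16, chromosome 18) was at 144.5, 212.8 and 176.2 CPM in Ctr, 159.0 and 182.3 in Ref, and 227.4 and 186.3 in Alt. The Ctr libraries alone spanned most of this range, and the Ref libraries lay inside it. The log2 fold change of Nr3c1 was -0.06 (SE 0.183) for Ref versus Ctr, 0.22 (SE 0.182) for Alt versus Ctr and 0.28 (SE 0.200, adjusted p = 0.535) for Alt versus Ref. Nr3c2 (ENSMUSG00000031618.14) was at 40.2, 50.3 and 44.1 CPM in Ctr, 42.9 and 44.3 in Ref, and 53.9 and 46.3 in Alt. Here too the Ctr libraries overlapped both other groups. Its log2 fold change was -0.04 (SE 0.169) for Ref versus Ctr, 0.16 (SE 0.168) for Alt versus Ctr and 0.20 (SE 0.185, adjusted p = 0.647) for Alt versus Ref. Both receptors were higher in each Alt library than in each Ref library, as were 21.6% of all genes tested, and neither passed the test.

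**Figure D1:**
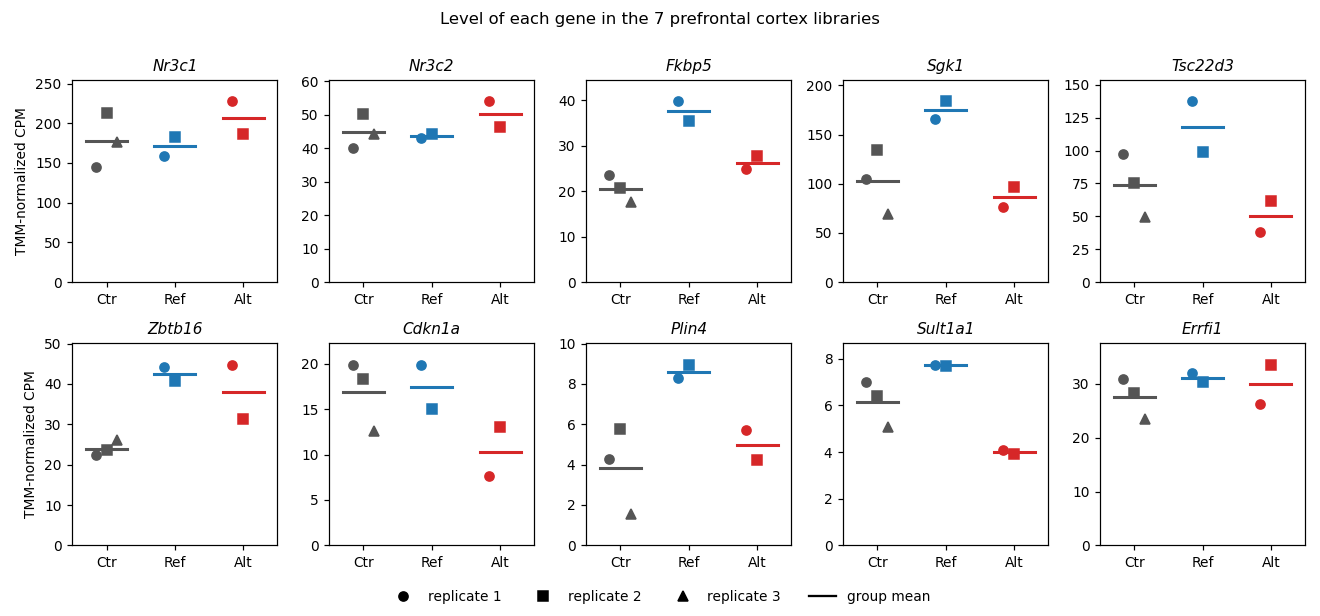
Level of the 10 genes in each library, in TMM-normalized CPM on linear axes from 0; points are libraries, shaped by replicate number, and lines are group means of 3 Ctr, 2 Ref and 2 Alt libraries. For Fkbp5, Sgk1, Tsc22d3, Zbtb16, Plin4 and Sult1a1 both Ref libraries lie above every Ctr library, while the points of Nr3c1, Nr3c2, Cdkn1a and Errfi1 overlap between Ref and Ctr.

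Fkbp5 (ENSMUSG00000024222.18) encodes FKBP51, a co-chaperone that lowers the receptor's affinity for hormone and is itself induced by it, so that it forms a short negative feedback loop. Its level was 23.5, 20.7 and 17.5 CPM in Ctr, 39.8 and 35.4 in Ref, and 24.8 and 27.8 in Alt. The groups did not overlap: Ref was highest, and both Alt libraries lay between Ref and Ctr. Ref versus Ctr had a log2 fold change of 0.87 (SE 0.193), or 1.83-fold, and Alt versus Ref one of -0.51 (SE 0.214, adjusted p = 0.292). For Alt versus Ctr it was 0.36 (SE 0.195, adjusted p = 0.331). The difference between Ref and Ctr kept its direction and an unadjusted p under 0.05 in 15 of 15 alternative analyses, at log2 fold changes of 0.77 to 0.97, whereas that between Alt and Ref missed this threshold without Alt replicate 1 (-0.43) and without either Ref library.

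Sgk1 (ENSMUSG00000019970.16) encodes a serine/threonine kinase that acts on ion channels and transporters, and is a classic corticosteroid target of glia as well as of epithelia. It was at 104.4, 134.3 and 69.6 CPM in Ctr, 165.8 and 183.7 in Ref, and 76.8 and 96.3 in Alt. Both Ref libraries were above every other library, and the Alt libraries fell within the range of Ctr. The log2 fold change was 0.77 (SE 0.230) for Ref versus Ctr and -1.01 (SE 0.258, adjusted p = 0.229) for Alt versus Ref, a level 2.02-fold lower in Alt. Both differences kept their direction with each library left out in turn, with ranges of 0.55 to 1.01 and of -1.18 to -0.85. Alt versus Ctr was -0.25 (SE 0.235, adjusted p = 0.600), ran from -0.46 to -0.0063 with a library left out, and reached an unadjusted p under 0.05 in 3 of 16 alternatives, among them without Ctr replicate 3 (-0.46).

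Of the 8 members whose promoter windows were searched, Sgk1 alone had one with the full palindromic response element, and the window is shown for that reason. It covers 250 bases before to 50 after one of the gene's annotated starts, chr10:21993640-21993939 on the + strand of GRCm38.p6 in RefSeq. Capitals mark the element, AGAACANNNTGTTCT, which starts 189 bases before the annotated start, and a further single hexamer (TGTTCT) upstream of it.
Sgk1: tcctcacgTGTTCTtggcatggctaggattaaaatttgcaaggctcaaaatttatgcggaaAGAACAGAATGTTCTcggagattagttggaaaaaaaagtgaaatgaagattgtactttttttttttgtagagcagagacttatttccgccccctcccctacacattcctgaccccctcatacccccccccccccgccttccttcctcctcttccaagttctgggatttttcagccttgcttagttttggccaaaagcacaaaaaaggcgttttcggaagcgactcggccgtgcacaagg

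The letters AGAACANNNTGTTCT were found in 3 of 32851 mouse promoter windows, or 0.00913%, and the element is its own reverse complement, so both strands were searched at once. The 8 members with an entry in the RefSeq table (all but Nr3c1 and Zbtb16) had 17 windows. The single hexamer, AGAACA or TGTTCT, occurred in 5 of these 17 windows, in Sgk1, Sult1a1 and Tsc22d3, and in 19.0% of all windows. A looser form, GNACANNNTGTNC, lies inside the full element and was found in 0.475% of all windows, among the members only in that of Sgk1. A match is a stretch of letters and not a measured binding site.

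**Figure D2:**
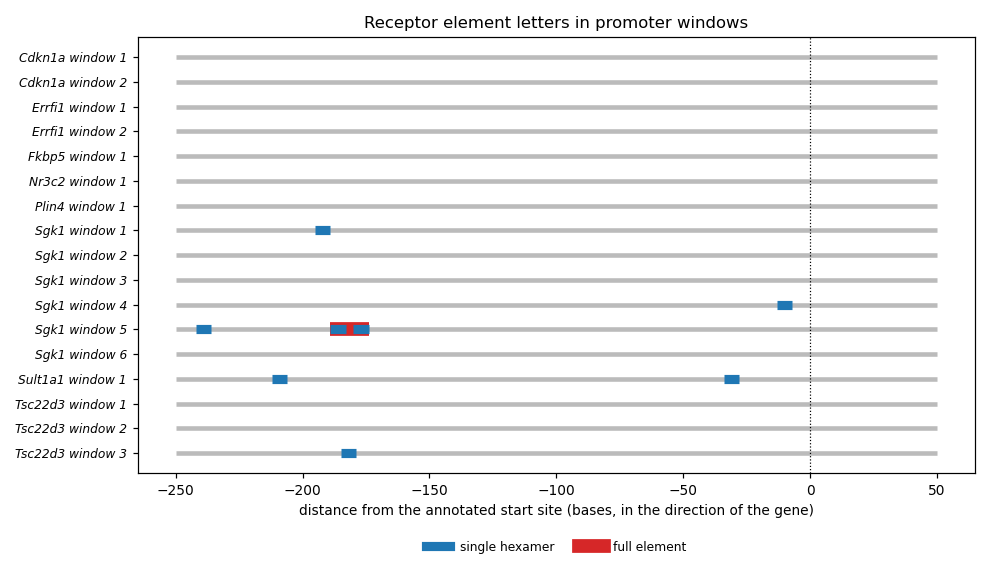
Position of the response element letters in the 17 RefSeq promoter windows of 8 genes, with distance from the annotated start site in bases on the x axis; grey lines are the windows, blue blocks single hexamers and the red block the full element. Only Sgk1 window 5 holds the full element, whose ends are also single hexamers, and Cdkn1a, Errfi1, Fkbp5, Nr3c2 and Plin4 have no match.

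Tsc22d3 (ENSMUSG00000031431.14) encodes GILZ, a leucine zipper protein that carries part of the anti-inflammatory action of glucocorticoids. It was at 97.5, 75.2 and 49.6 CPM in Ctr, 137.4 and 98.8 in Ref, and 38.3 and 62.0 in Alt. Ref and Alt were far apart, but the Ctr libraries spread widely and Ctr replicate 1 came close to Ref replicate 2. The log2 fold change was -1.23 (SE 0.308, adjusted p = 0.229) for Alt versus Ref, the largest among the members in that comparison, and 0.67 (SE 0.273) for Ref versus Ctr. For Alt versus Ctr it was -0.56 (SE 0.282, adjusted p = 0.293), with a range of -0.95 to -0.25 with a library left out. It reached an unadjusted p under 0.05 in 5 of 16 alternatives, among them without Ctr replicate 3 (-0.78). Without Alt replicate 2, which leaves a single Alt library, it was -0.95. Alt versus Ref kept its direction with each library left out. Ref versus Ctr kept it in 10 of 15 alternatives, and among the losses were those without Ctr replicate 3 (0.45), Ref replicate 1 (0.42) or Ctr replicate 2 (0.68). One of its 3 promoter windows, chrX:140600473-140600772 on the - strand of GRCm38.p6 in RefSeq, holds a single hexamer, in capitals, 185 bases before the annotated start.
Tsc22d3: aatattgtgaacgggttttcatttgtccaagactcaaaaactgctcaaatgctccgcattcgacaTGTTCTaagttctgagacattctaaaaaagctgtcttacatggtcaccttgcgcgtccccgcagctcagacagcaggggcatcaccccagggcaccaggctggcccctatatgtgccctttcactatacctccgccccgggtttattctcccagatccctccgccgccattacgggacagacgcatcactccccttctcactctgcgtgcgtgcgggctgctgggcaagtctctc

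Zbtb16 (ENSMUSG00000066687.6) encodes PLZF, a zinc finger transcription factor induced by glucocorticoids in many tissues. It was at 22.3, 23.6 and 26.0 CPM in Ctr, 44.1 and 40.6 in Ref, and 44.8 and 31.4 in Alt. All 4 libraries with PAXIP1-AS1 were above all 3 Ctr libraries, and Ref and Alt overlapped. Its log2 fold change was 0.82 (SE 0.193) for Ref versus Ctr and 0.67 (SE 0.194, adjusted p = 0.127) for Alt versus Ctr. The latter was 0.39 and no longer under an unadjusted p of 0.05 without Alt replicate 1, while Ref versus Ctr stayed between 0.76 and 0.88 with each library left out. Alt versus Ref was -0.16 (SE 0.214, adjusted p = 0.781), which turned to 0.09 without Alt replicate 2.

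Plin4 and Sult1a1 had the fewest counts of the 10 genes. Plin4 (ENSMUSG00000002831.15), a coat protein of lipid droplets, was at 4.27, 5.76 and 1.53 CPM in Ctr, 8.27 and 8.95 in Ref, and 5.72 and 4.24 in Alt, from 33 to 173 counts per library. Ref was above every other library, and Ctr replicate 3 was far below the rest. The log2 fold change for Ref versus Ctr was 1.16 (SE 0.451), with an unadjusted p under 0.05 that held in 10 of 15 alternatives and was lost, among others, without Ctr replicate 3 (0.78), Ref replicate 1 (1.22) or Ref replicate 2 (1.10). Alt versus Ref was -0.79 (SE 0.504, adjusted p = 0.473), and Alt versus Ctr was 0.37 (SE 0.463), which turned to -0.01 without Ctr replicate 3. Sult1a1 (ENSMUSG00000030711.17), a phenol sulfotransferase, was at 7.0, 6.40 and 5.06 CPM in Ctr, 7.74 and 7.70 in Ref, and 4.10 and 3.90 in Alt. The groups did not overlap, with Ref highest and Alt lowest. Here the log2 fold change was -0.95 (SE 0.334, adjusted p = 0.244) for Alt versus Ref, 0.33 (SE 0.295) for Ref versus Ctr and -0.62 (SE 0.309, adjusted p = 0.289) for Alt versus Ctr. The unadjusted p of Alt versus Ref was no longer under 0.05 after a correction for gene length (-0.63) or without Ref replicate 1 (-0.96) or 2 (-0.94). In the table's coordinates Plin4 overlaps Hdgfl2 by 17 bases and Sult1a1 overlaps Sgf29 by 61 bases, each on the opposite strand, and whether the counting used strand was not given in the sources used here.

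Cdkn1a (ENSMUSG00000023067.15), which encodes the cell cycle inhibitor p21, was at 19.8, 18.3 and 12.6 CPM in Ctr, 19.9 and 15.1 in Ref, and 7.61 and 12.99 in Alt. Unlike in the targets above, the Ref and Ctr libraries overlapped, at a log2 fold change of 0.05 (SE 0.286), which turned negative without Ctr replicate 3 (-0.13). On the log2 scale the fold change was -0.76 (SE 0.319, adjusted p = 0.293) for Alt versus Ref and -0.71 (SE 0.296, adjusted p = 0.213) for Alt versus Ctr. Without Alt replicate 1 they were -0.42 and -0.38 and missed an unadjusted p of 0.05. The difference from Ref also missed it without Ref replicate 1 (-0.55) and in a fit of only the 2 groups (-0.75), and the one from Ctr without Ctr replicate 1 or 2. Errfi1 (ENSMUSG00000028967.11), a feedback inhibitor of the EGF receptor, was at 30.9, 28.3 and 23.4 CPM in Ctr, 32.1 and 30.3 in Ref, and 26.3 and 33.6 in Alt. Its libraries overlapped in all 3 comparisons, with log2 fold changes of 0.18 for Ref versus Ctr, 0.12 for Alt versus Ctr and -0.06 for Alt versus Ref. Among the 8 targets its difference between Alt and Ref was the smallest, and it changed sign without Alt replicate 1 (0.12).

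For Ref versus Ctr, 5 of the 10 genes had an unadjusted p under 0.05, against 3.14% of the 17254 genes tested. All 5 were higher in Ref (Fkbp5, Zbtb16, Sgk1, Plin4 and Tsc22d3), against 2.19% of all genes higher and 0.945% lower. In 6 members both Ref libraries were above every Ctr library, against 12.4% of all genes. The median log2 fold change of the 8 targets was 0.72, beside 0.0055 over all genes tested. The summed level of the 8 targets was 205.4 to 312.7 CPM in Ctr and 420.6 to 455.0 CPM in Ref. After adjustment over all genes, edgeR called 0 of the 10 members and 0 genes of the table (0%), and DESeq2 called 0 members and 6 genes (0.0551%). Ctr replicate 3 had the lowest level among the Ctr libraries for 7 of the 8 targets, and without it 3 members kept an unadjusted p under 0.05 and the median of the 8 targets was 0.50. Without Ref replicate 1 the count was also 3.

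For Alt versus Ref, 5 of the 10 genes had an unadjusted p under 0.05, against 15.5% of all genes tested, and all 5 were lower in Alt (Tsc22d3, Sgk1, Sult1a1, Cdkn1a and Fkbp5), against 8.83% of all genes lower and 6.71% higher. In 6 members both Alt libraries were below both Ref libraries, against 26.1% of all genes. All 8 targets had a negative log2 fold change, with a median of -0.77 beside -0.04 over all genes. edgeR called 0 members and 1 gene of the table after adjustment (0.00580%), with adjusted p-values for the members of at least 0.229. DESeq2 called Tsc22d3 (adjusted p = 0.0130) and Sgk1 (adjusted p = 0.0189), against 3.82% of the genes it gave an adjusted p. The count at an unadjusted p under 0.05 was 3 without Alt replicate 1, 2 without Ref replicate 1 and 3 without Ref replicate 2. This comparison and that of Ref with Ctr share the Ref libraries, so their opposite signs in the targets are not separate observations.

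For Alt versus Ctr, 1 member (Zbtb16) was higher and 1 (Cdkn1a) lower at an unadjusted p under 0.05, against 19.8% of all genes tested, 9.45% higher and 10.3% lower. The share of members was thus that of the table. Both Alt libraries were above every Ctr library in Fkbp5 and Zbtb16, against 16.8% of all genes, and below every Ctr library in Sult1a1, against 18.1%. The 8 targets were split into 4 positive and 4 negative values, with a median of -0.06 beside -0.03 over all genes, and their summed level was 228.3 to 272.2 CPM in Alt. edgeR called 0 members and 0 genes (0%) after adjustment, and DESeq2 called Zbtb16 (adjusted p = 0.0334), against 8.50% of genes. Without Alt replicate 1 no member had an unadjusted p under 0.05, and without Ctr replicate 3 the count was 4. Without Ctr replicate 1 or 2 it was 1.

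**Figure D3:**
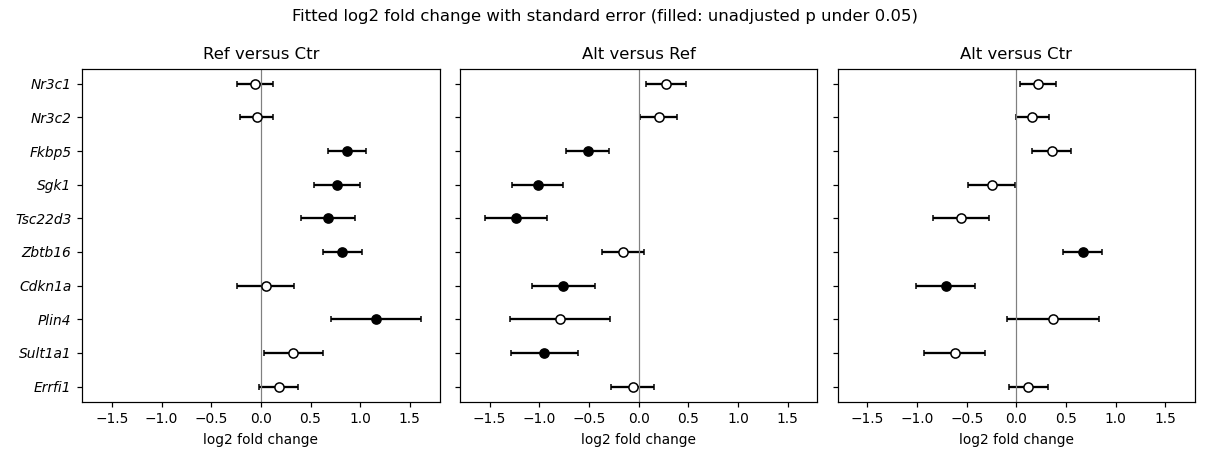
Fitted log2 fold change of the 10 genes in the 3 comparisons, with bars of 1 standard error from edgeR's quasi-likelihood fit; filled points have an unadjusted p under 0.05. For Ref versus Ctr 5 filled points lie to the right of 0, for Alt versus Ref 5 lie to the left, and for Alt versus Ctr 1 lies on each side.

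Markers of cell types were compared in the same way, and the lists differed in how they moved. The counts of markers at an unadjusted p under 0.05 are to be read against 3.14% of all genes tested in Ref versus Ctr, 15.5% in Alt versus Ref and 19.8% in Alt versus Ctr. The oligodendrocyte list (Mbp, Mag, Mobp and others) had 9 of 9 genes higher in Ref than in Ctr, 7 of them at an unadjusted p under 0.05, with a median log2 fold change of 0.77. All 9 were lower in Alt than in Ref, 7 at that threshold, with a median of -0.83, and Mbp (-1.29, adjusted p = 0.0481) was the 1 gene of the table that edgeR called in this comparison. Their summed level was 2334 to 3260 CPM in Ctr, 3920 to 4853 in Ref and 2256 to 2786 in Alt, and none was at 0 in any library. Like Fkbp5, Sgk1 and Tsc22d3, the list was highest in both Ref libraries, and its part in their values was not tested. Of 8 astrocyte markers 3 were higher in Ref than in Ctr at an unadjusted p under 0.05, with a summed level of 5386 to 7004 CPM in Ctr and 7372 to 8907 in Ref. Of 10 endothelial markers 2 were higher, at 400.3 to 485.6 CPM in Ctr and 503.8 to 605.1 in Ref, and of 8 microglia markers 0 passed, at 465.6 to 529.3 and 547.3 to 557.4 CPM. In Alt the astrocyte markers summed to 8109 to 11380 CPM, but Slc1a2 alone, a glutamate transporter, made up 5964 to 9528 of this. Over the 8 astrocyte markers the median log2 fold change for Alt versus Ctr was 0.098, with 1 higher and 1 lower at an unadjusted p under 0.05, and for Alt versus Ref 5 were negative and 1 was lower at that threshold, both shares near those of all genes. The microglia markers summed to 438.7 to 495.0 CPM in Alt, with 4 of 8 lower than in Ref at this threshold and a median of -0.39. Against Ctr 3 of them were lower, the complement genes C1qa (-1.09), C1qb (-0.81) and C1qc (-0.65), and Cx3cr1 (0.365) was higher. At the same threshold, of 3 oligodendrocyte precursor markers 2 were higher in Ref than in Ctr (Cspg4 and Olig1) and 2 in Alt than in Ctr (Pdgfra and Cspg4), while Olig1 was lower in Alt than in Ref, with sums of 208.0 to 267.6 CPM in Ctr, 309.7 to 326.2 in Ref and 254.7 to 296.0 in Alt. None of 6 mural cell markers passed in any comparison. Of 8 neuron markers Map2 (0.555) and Slc17a7 (0.318) were higher and Tubb3 (-0.385) was lower in Alt than in Ctr at this threshold, and Syt1 (0.393), 1 of the 8 and so a share near that of all genes, was higher in Alt than in Ref, while 0 passed for Ref versus Ctr. The endothelial markers summed to 588.9 to 647.1 CPM in Alt, and 5 meningeal and choroid markers tested were all higher than in Ctr, 2 at an unadjusted p under 0.05, with the full list at 91.8 to 102.4 CPM against 59.9 to 71.3. The part of these cells in the values of the members was not tested.

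**Figure D4:**
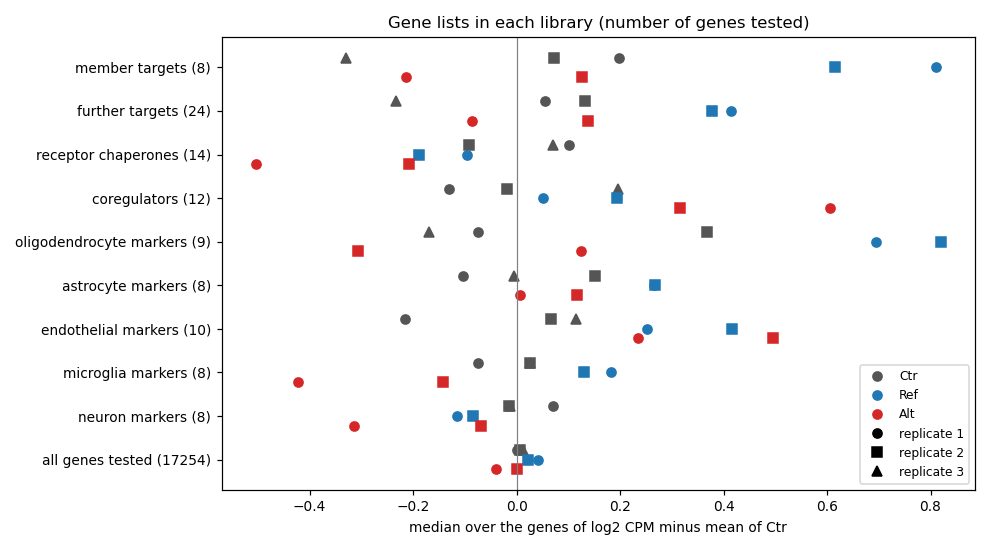
Median over the genes of each list of log2 CPM minus the mean of Ctr, for each of the 7 libraries; colours are groups, shapes replicate numbers, and the number of genes tested is in brackets. Both Ref libraries lie to the right of every other library for the member targets, the further targets and the oligodendrocyte, astrocyte and microglia markers, while the median of all genes tested stays near 0.

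A list of 25 further glucocorticoid targets, of which 24 were tested (Lcn2 had too few counts), gave 21 positive log2 fold changes for Ref versus Ctr, with a median of 0.37. An unadjusted p under 0.05 was reached by 9, all higher in Ref, where 2.19% of all genes were higher. They were led by Map3k6 (1.504, SE 0.374), a kinase of the MAP kinase cascade, Arrdc2 (1.40, SE 0.290), an arrestin domain protein, Cebpd (1.24, SE 0.506), a transcription factor of the C/EBP family, and Hif3a (1.15, SE 0.362), a hypoxia-inducible factor subunit. Arrdc2 was at 3.87, 6.74 and 5.39 CPM in Ctr, 14.8 and 13.4 in Ref, and 4.55 and 4.96 in Alt, so only Ref stood apart. The count was 5 without Ctr replicate 3, 5 without Ref replicate 1 and 4 without Ref replicate 2, all higher in each case. In none of these genes was the adjusted p of edgeR under 0.05. The list was also chosen with earlier results of these data known, and it was measured in the same libraries as the members. Its counts are therefore no independent support for those of the members.

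For Alt versus Ref, 20 of the 24 were negative, with a median of -0.32, and 7 were lower at an unadjusted p under 0.05 while 0 were higher, against 8.83% and 6.71% of all genes. The largest differences were in Angptl4 (-1.66, SE 0.527), a secreted inhibitor of lipoprotein lipase, Mt2 (-1.62, SE 0.662), a metallothionein, Arrdc2 (-1.57, SE 0.332) and Cebpd (-1.45, SE 0.577). Mt2 had 9 counts in Alt replicate 2, and Cebpd 15 in Alt replicate 1. Leaving out Alt replicate 1 gave a count of 5, and leaving out Alt replicate 2 gave 11. For Alt versus Ctr, 13 were positive and 11 negative, with Hif3a (1.12, SE 0.364), Nedd9 (0.80, SE 0.297), a scaffold protein of focal adhesions, and Mertk (0.38, SE 0.157), a receptor for the uptake of dying cells, higher and Mt1 (-0.93, SE 0.314) lower at an unadjusted p under 0.05. These 4 of 24 were no larger a share than the 19.8% of all genes that passed in this comparison. Without Alt replicate 1 no gene of the list was higher at this threshold.

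**Figure D5:**
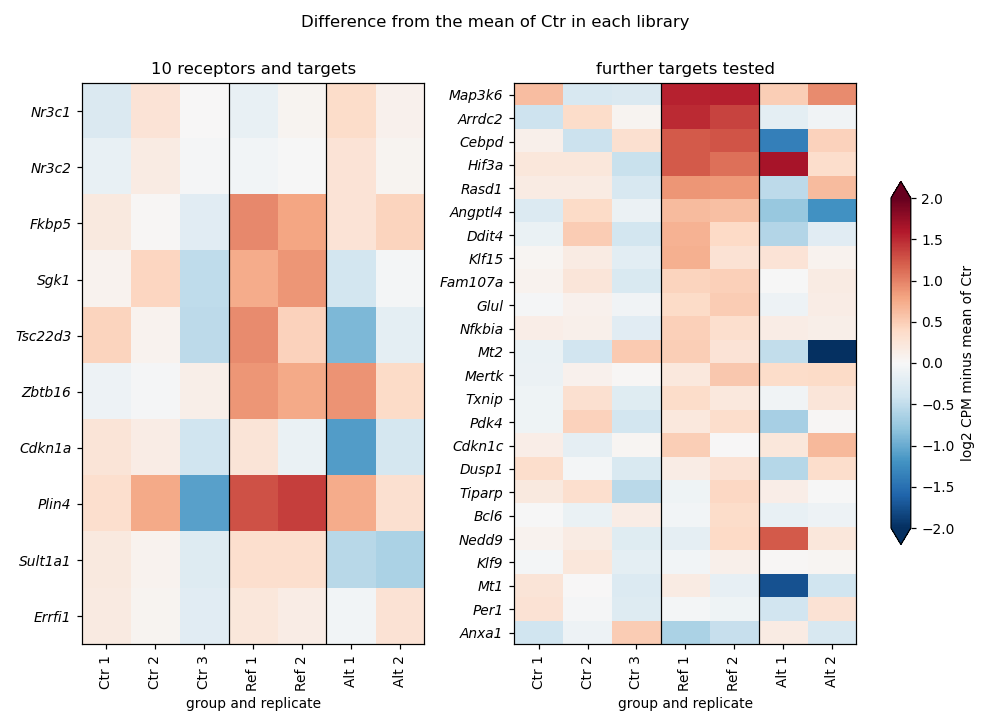
Log2 CPM minus the mean of Ctr for the 10 genes and for the 24 further targets tested, with libraries in columns, on a colour scale from -2 (blue) to 2 (red). The Ref columns are mostly red in both panels, and the Alt columns differ from each other, as in Cebpd, Mt1 and Nedd9.

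Loose elements occurred in 5 of the 25 windows searched for 21 further targets, in 4 genes, against 0.475% of all windows. They are shown with 12 bases on each side, the element in capitals, read in the direction of the gene, to set beside the Sgk1 element above.
Map3k6: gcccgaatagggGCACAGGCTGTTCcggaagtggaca
Mt1: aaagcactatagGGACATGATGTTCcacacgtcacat
Fam107a: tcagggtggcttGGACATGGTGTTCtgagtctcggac
Txnip: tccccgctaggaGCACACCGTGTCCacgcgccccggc
In RefSeq GRCm38.p6 they lie at chr4:133240637-133240649 (+), chr8:94178995-94179007 (+), chr14:8309885-8309897 (-) and chr3:96557785-96557797 (+). For Ref versus Ctr the log2 fold change was 0.44 in Fam107a, a stress-responsive actin-binding protein, 0.27 in Txnip, an inhibitor of thioredoxin, and -0.0040 in Mt1, a metallothionein, beside the value of Map3k6 above. The Txnip libraries overlapped in all 3 comparisons.

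Of 14 receptor chaperones 13 were lower in Alt than in Ctr, 6 of them at an unadjusted p under 0.05, where 10.3% of all genes tested were lower, with a median log2 fold change of -0.40. They included Ppp5c (-0.56, SE 0.238), a phosphatase of the complex, Fkbp4 (-0.55, SE 0.241), which encodes FKBP52, the counterpart of FKBP51, Dnajb1 (-0.49, SE 0.219), an HSP40 co-chaperone, and Ppid (-0.48, SE 0.192), a cyclophilin. Without Alt replicate 1 or without Ctr replicate 1 the count was 1, and it was 2 without Ctr replicate 3. For Alt versus Ref 2 of the 14 passed, Fkbp4 (-0.81, SE 0.261) and Ppp5c (-0.64, SE 0.258), a share near the 15.5% of all genes. For Ref versus Ctr 0 passed, against 3.14% of all genes. Values of the chaperone list after a correction for gene length are not reported here. Fkbp4 was at 58.7, 34.5 and 55.0 CPM in Ctr, 67.7 and 50.4 in Ref, and 29.8 and 37.4 in Alt. In Alt, Fkbp5 lay above all 3 Ctr libraries, while Fkbp4 overlapped the lowest of them.

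The 12 coregulators, which link the receptor to chromatin and the transcription machinery, were all higher in Alt than in Ctr, with 8 at an unadjusted p under 0.05, against 9.45% of all genes higher, and a median log2 fold change of 0.47, but after a correction for gene length 9 of 12 were positive, 1 passed and the median was 0.235. The largest values were in Ep300 (0.78, SE 0.244), an acetyltransferase, Ncor1 (0.69, SE 0.205), a corepressor, Med1 (0.57, SE 0.202), a Mediator subunit, and Ncoa3 (0.56, SE 0.167), a coactivator. Without Alt replicate 1 the count was 1. For Alt versus Ref 12 were positive and 4 passed (Ncor1 0.54, Nrip1 0.51, Med1 0.50 and Ncoa3 0.44), where 6.71% of all genes were higher, but 7 were positive and 0 passed with the length correction, and for Ref versus Ctr 0 passed.

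Of the genes that set local hormone supply, Hsd11b1, whose product regenerates active corticosterone inside cells, was at 8.94, 14.4 and 8.97 CPM in Ctr, 13.8 and 13.9 in Ref, and 5.92 and 6.58 in Alt. It was lowest in both Alt libraries, at a log2 fold change of -1.15 (SE 0.308, adjusted p = 0.229) versus Ref and -0.78 (SE 0.285, adjusted p = 0.171) versus Ctr. Abcb1a, an efflux pump of the blood-brain barrier that exports steroids, was higher than in Ctr in Alt (0.60, SE 0.169) and in Ref (0.47, SE 0.169). Of the 10 endothelial markers, 3 were higher in Alt and 2 in Ref than in Ctr at an unadjusted p under 0.05, and their part in Abcb1a was not tested. Hsd11b2 and Serpina6 had too few counts for a test. Pgr, which encodes the related progesterone receptor, was higher in Alt at an unadjusted p under 0.05, at 0.70 (SE 0.242) versus Ctr and 0.66 (SE 0.269) versus Ref. It was at 80.4 CPM in Alt replicate 1 against 48.4 in Alt replicate 2 and 31.3 to 47.8 in the other libraries, and without Alt replicate 1 it did not pass for Alt versus Ctr. Esr2 was not tested. In the list of corticotropin-releasing hormone genes, Crh itself, the hypothalamic releasing hormone that cortical interneurons also express, was at 1.89, 3.20 and 2.79 CPM in Ctr, 1.11 and 0.724 in Ref, and 3.12 and 2.84 in Alt. It was thus lowest in Ref, at -1.51 (SE 0.562) versus Ctr, from 14 to 65 counts per library, and 1.69 (SE 0.600, adjusted p = 0.244) higher in Alt than in Ref, and none of these genes had an adjusted p under 0.05 with edgeR.

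In the table's coordinates, to which no mouse build could be assigned, Nr3c2 lies at chr8:77626070-77971641, Fkbp5 at chr17:28618068-28736501, Sgk1 at chr10:21758083-21875802, Tsc22d3 at chrX:139440277-139501408 and Zbtb16 at chr9:48565597-48747522. Cdkn1a lies at chr17:29309950-29319701, Plin4 at chr17:56407591-56416803, Sult1a1 at chr7:126272037-126275604 and Errfi1 at chr4:150938376-150953349. These are not the coordinates of the promoter windows, which are those of GRCm38.p6. The summed gene length was 1507 bases in Sult1a1, the shortest of the 10, to 9468 in Fkbp5, against a median of 4051 over the genes tested.

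On the TPM scale of the authors, which divides by gene length and allows genes to be compared, Nr3c1 (79.3 ± 14.9 TPM, SD, n = 3), Sgk1 (71.3 ± 20.5) and Tsc22d3 (58.1 ± 17.3) led the 10 genes in Ctr, and their ranges overlapped. Errfi1 (26.3 ± 2.82), Nr3c2 (23.7 ± 2.62), Cdkn1a (16.2 ± 3.17), Zbtb16 (15.6 ± 1.78), Sult1a1 (13.9 ± 1.82), Fkbp5 (7.42 ± 0.869) and Plin4 (2.05 ± 1.10) followed. The ranges of Errfi1 and Nr3c2 overlapped, as did those of Cdkn1a, Zbtb16 and Sult1a1, and Fkbp5 and Plin4 were each separate from their neighbours. In Ref the order at the top was Sgk1 (117.9 ± 3.04, n = 2), Tsc22d3 (91.3 ± 29.8) and Nr3c1 (73.4 ± 0.121), with the last 2 overlapping, and in Alt it was Nr3c1 (89.3 ± 19.4, n = 2), Sgk1 (57.8 ± 4.74) and Tsc22d3 (37.6 ± 9.76). In Alt each of these 3 was separate from the next, so the receptor stood above both targets there.

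The genes most like Nr3c1 across the 7 libraries, by the root mean square difference in centred log2 CPM among 14491 protein-coding genes, were Itgav (0.0358), Tmem33 (0.0406) and Itsn2 (0.0424), against a median of 0.376 over all genes compared. For Nr3c2 they were Uvrag (0.0302), Tbc1d1 (0.0326) and Mtmr3 (0.0399), against a median of 0.335. For Fkbp5 the nearest genes were less close, with Hes1 at 0.138, 1700017B05Rik at 0.141 and Heph at 0.152, against a median of 0.493. A gene with little variation, such as Nr3c1 or Nr3c2, lies near many others by this measure.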

How the data were processed

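Libraries (3 Ctr, 2 Ref, 2 Alt) were made from polyadenylated RNA of the PFC, and were grouped and numbered by their labels. The authors deposited 1 table with the raw count of reads per gene, TPM values and FPKM values that equal the counts scaled by gene length and library total. The labels list STAR and featureCounts, with versions not given in the sources used here, and hg19, a human build, while the table lists mouse genes, so no build is assigned to its coordinates. Columns of TPM deposited by the authors were used for the order of levels, and FPKM was not tested.

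The main test was that of edgeR 4.0.16 under R 4.3.3 (TMM, filterByExpr by group, glmQLFit and glmQLFTest on 3 group means over 7 libraries, Benjamini-Hochberg adjustment over 17254 genes), which was tested on simulated data. A standard error is the log2 fold change divided by the square root of F. The prior count for log2 CPM was 2. Library totals of 16655697 to 20750857 set the precision, which is lowest for Plin4 and Sult1a1. In this fit Alt versus Ctr has the same p as the linear term of the order Ctr, Ref, Alt. DESeq2 1.42.0, other size factors, no low-count filter, a gene length correction (loess, span 0.3), the replicate number as a block, a robust fit, fits of 2 groups and each library left out were the alternatives.

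The members and lists were chosen with earlier results of these data known. Every member is named, and of each other list up to 4 genes per comparison with an unadjusted p under 0.05, by size of the log2 fold change, and genes not tested; Fam107a, Txnip and Mt1 are also shown for their promoter letters. Promoter windows came from RefSeq GRCm38.p6 and were used only for sequence. PAXIP1-AS1 itself was not analysed here. Some genes of the lists are counted but not reported here by name.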

Additional observations from a re-analysis of the deposited data

How the results depend on the processing

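With 2 to 3 libraries per group, a single library can decide a call. Of 460 values of single members under alternatives, 408 kept direction and side of an unadjusted p of 0.05, 27 lost and 9 gained it, and 16 changed sign; the cause was not tested. The sign changes were in Alt versus Ctr for Fkbp5 (-0.031, block with length correction), Plin4 (-0.0059 block, -0.15 block with length correction, and -0.012 to 0.78 with a library left out, negative without Ctr replicate 3) and Errfi1 (-0.066 to 0.29, negative without Alt replicate 2). In Alt versus Ref they were in Zbtb16 (-0.42 to 0.088, positive without Alt replicate 2) and Errfi1 (0.011 length correction, 0.0093 block with length correction, -0.24 to 0.12 with a library left out, positive without Alt replicate 1). In Ref versus Ctr they were in Nr3c1 (-0.19 to 0.090, positive without Ctr replicate 2 and at 0.040 without Ref replicate 1), Nr3c2 (-0.12 to 0.049, positive without Ctr replicate 2) and Cdkn1a (-0.12 block, -0.11 block with length correction, -0.16 to 0.23 with a library left out, negative without Ctr replicate 3, at -0.13, and without Ref replicate 1).

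Same-numbered libraries showed little likeness: their deviations from the group mean correlated at -0.0984 to 0.0702. In a group of 2 libraries these deviations are mirror images, so the correlations are not separate checks of a pairing. With the replicate block, members at an unadjusted p under 0.05 numbered 4 for Alt versus Ctr (main 2), 3 (5) for Alt versus Ref and, in Ref versus Ctr, 3 (5), and with block and length correction 4 (Alt versus Ctr) and 3 (Ref versus Ctr). The calls lost with the block were Tsc22d3 and Plin4 for Ref versus Ctr, at 0.45 and 0.78, and Fkbp5 and Cdkn1a for Alt versus Ref, at -0.51 and -0.77. The pathway genes numbered 13 (Alt versus Ctr) and 6 (Ref versus Ctr) with the block, and 10 for Alt versus Ctr with block and length correction. DESeq2 with a numeric score gave 1 member for Alt versus Ctr. With each library left out the member counts ranged from 0 to 4 for Alt versus Ctr, 2 to 5 (Alt versus Ref) and 3 to 5 (Ref versus Ctr), and the pathway counts from 6 to 29, 7 to 33 and 4 to 15.

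At an adjusted p under 0.05, members numbered 1 (DESeq2) and 2 (no low-count filter) for Alt versus Ctr, 2 and 2 for Alt versus Ref, and 1 (no filter) for Ref versus Ctr, against 0 in the main analysis; with each library left out they ranged from 0 to 3 in both Alt comparisons, the 3 without Alt replicate 2. Over all genes, Alt versus Ctr gave 1097 (DESeq2), 596 (score) and 1484 (no filter), and 0 to 3451 with a library left out. Alt versus Ref gave 429 (DESeq2), 850 (no filter), 4 (length correction), 2 (robust fit) and 0 with RLE size factors, the block, block with length correction or only those 2 groups, and 0 to 2708 with a library left out. Ref versus Ctr gave 6 (DESeq2) and 40 (no filter), and 0 to 5 with a library left out. The highest counts for both Alt comparisons came without Alt replicate 2.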
